A study of Mus musculus with 12 samples.

Results

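The genes described here are 9 factors that astrocytes release or carry on their surface and through which they shape synapses: Sparcl1 and Sparc, the glypicans Gpc4, Gpc5 and Gpc6, Chrdl1, and the thrombospondins Thbs1, Thbs2 and Thbs4. They were chosen by name, with no measured value in the rule, but with earlier results of these data known. All 9 were found among the 41388 genes of the count files and passed the filter on low counts in every comparison. The series measured RNA by sequencing in astrocytes and in the remaining brain cells of mice aged 20 months. The 12 libraries form 4 groups: KO astrocytes (n = 4 mice), WT astrocytes (n = 4), KO flowthrough (n = 2) and WT flowthrough (n = 2). KO mice were Bmal fl/fl; ALDH1L1-CreERT2 animals labelled Cre+ knockout. WT mice carried the same floxed Bmal1 alleles, lacked Cre, and received tamoxifen as the KO mice did (2 mg per mouse per day for 5 days, by gavage at 2 months of age). All were on a C57BL/6 background in 12-h light and 12-h dark, and the hour of collection is not given in the sources used here. The Aldh1l1 promoter drives the recombinase in astrocytes, so other cells of a KO brain keep the gene by design. Astrocytes were pulled from dissociated brains with magnetic beads against the surface antigen ACSA-2, and flowthrough is what the beads left. Flowthrough came from 4 of the same 8 mice, KO 60 and 132 and WT 56 and 64, and libraries are named here by label and mouse number.

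Astrocytes build and tune synapses through secreted proteins. Hevin, the product of Sparcl1, is known to bridge adhesion proteins of the presynaptic side to neuroligin on the postsynaptic side, and SPARC, a related matrix protein, is known from rodent cultures to oppose hevin. Thrombospondins act through the calcium channel subunit alpha2delta-1 (Cacna2d1) and give synapses that are structurally complete but silent. Glypicans 4 and 6 draw AMPA receptors to synapses, and Chrdl1, a secreted antagonist of bone morphogenetic proteins, promotes synapse maturation through the AMPA receptor subunit encoded by Gria2.

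The libraries held 38.7 to 51.6 M counts each (M, a factor of 1e+06), so the 3 counts taken as a floor correspond to 0.0582 to 0.0775 CPM (counts scaled to a library total of 1e+06). Arntl encodes BMAL1, the targeted gene. It had 9.50, 10.1, 12.1 and 13.3 CPM in KO astrocytes 60, 62, 73 and 132, against 7.52, 7.01, 5.39 and 8.80 CPM in WT astrocytes 56, 57, 64 and 78, so every KO library was above every WT library (log2 fold change 0.66 ± 0.19, SE; edgeR adjusted p = 0.473). A count over the whole gene does not separate floxed from other exons, and no source used here says which exons were floxed. KO and WT therefore mean libraries labelled so throughout. The captured cells carried the astrocyte label's markers: the summed level of 12 astrocyte markers was 12747 to 26906 CPM in KO astrocytes and 18745 to 25036 in WT astrocytes, against 4732 and 10259 in the KO and 3478 and 5084 in the WT flowthrough libraries. Captured libraries were not pure, with 24510 to 38522 CPM of 10 oligodendrocyte markers in KO and 20395 to 26669 in WT astrocytes. KO astrocytes 73 stood apart, with the lowest astrocyte sum of the captured libraries and the highest microglia sum (2918 CPM over 10 markers, against 601 to 1219 in the other 7). KO 73 and WT 78 were also female-type by Xist (45.1 and 26.7 CPM, against at most 0.1895 in the other 6 astrocyte libraries). Xist was at most 0.1979 CPM in the flowthrough libraries. In bulk RNA of this kind, fewer cells of a type and less RNA per cell cannot be told apart.

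**Figure D1:**
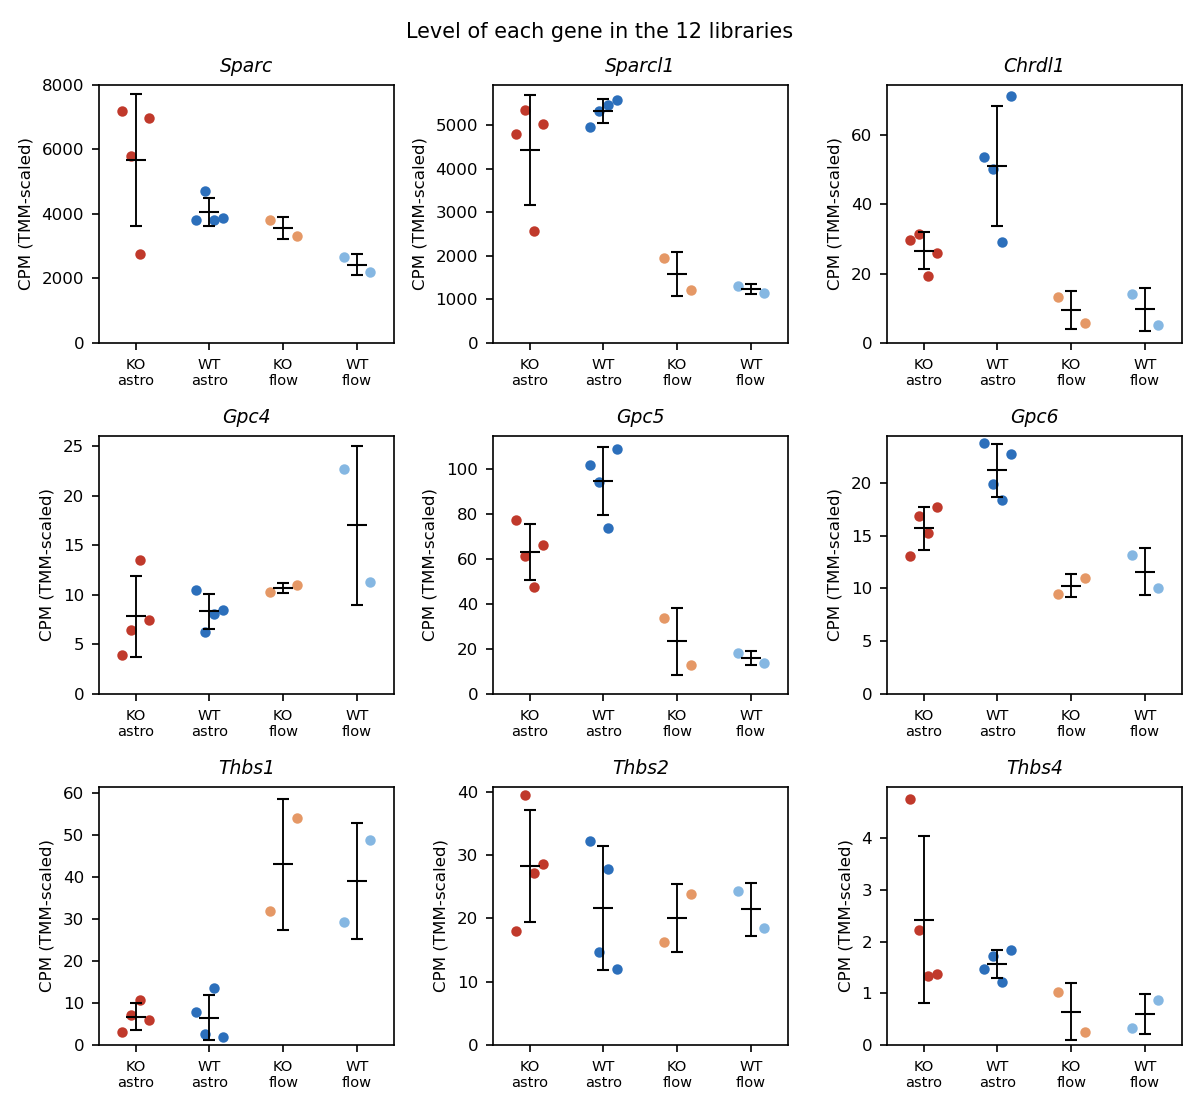
Level of each gene in every library, as CPM scaled by TMM over the 12 libraries (vertical axes start at 0). Points are libraries, and the bar and whiskers are the mean and SD of KO astrocytes (n = 4), WT astrocytes (n = 4), KO flowthrough (n = 2) and WT flowthrough (n = 2). Gpc6 is the gene whose 4 KO astrocyte libraries (13.1 to 17.7 CPM) all lie below the 4 WT astrocyte libraries (18.3 to 23.8 CPM), and Thbs1 is the gene whose 4 flowthrough libraries all lie above the 8 astrocyte libraries.

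The 9 genes covered a wide range of levels. Per length, as CPM per kilobase of exon (RPKM), Sparc averaged 1687 ± 608 and Sparcl1 1424 ± 405 RPKM in KO astrocytes, against 1205 ± 127 and 1710 ± 88 RPKM in WT astrocytes (SD, n = 4 each). Their ranges overlapped in KO astrocytes, where Sparc came first in the mean, and were apart in WT astrocytes, where Sparcl1 came first. Gpc5 followed in both, at 14.2 RPKM in KO and 21.3 RPKM in WT astrocytes, apart from the genes above and below it. The other 6 genes lay between 0.737 and 4.78 RPKM in KO astrocytes and between 0.475 and 7.55 RPKM in WT astrocytes. Each of these overlapped its neighbour in the order, which ran Thbs2, Chrdl1, Gpc4, Gpc6, Thbs1, Thbs4 in KO and Chrdl1, Thbs2, Gpc4, Gpc6, Thbs1, Thbs4 in WT astrocytes. In flowthrough Sparc and Sparcl1 again stood above all others, and Thbs1 came next, at 7.09 RPKM in KO and 6.42 RPKM in WT flowthrough (n = 2 each). Its range overlapped that of Gpc5 in KO and that of Gpc4 in WT flowthrough, so this place in the order is not settled. Thbs4 was the lowest in all 4 groups, with 14 to 201 raw counts per library.

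KO and WT astrocytes were compared first, to see whether captured astrocytes of aged mice differ in these genes between the labels. None of the 9 genes passed (0 of 9 at an edgeR adjusted p under 0.05, where 0.232% of the 18527 genes tested passed, 0.146% higher and 0.0864% lower in KO astrocytes). DESeq2 and limma-voom also called 0 of the 9. Chrdl1, Gpc5 and Gpc6 were lower in KO astrocytes with an unadjusted p under 0.05, a limit that 5.37% of all genes met and 2.86% met with a lower KO level. Sparc, Thbs2 and Thbs4 had higher means in KO astrocytes, as did Thbs1 by little (log2 fold change 0.05). In the same comparison 9 of 12 astrocyte markers were below 0 (median log2 fold change -0.226), and 10 of 10 oligodendrocyte markers (median 0.775) and 10 of 10 microglia markers (median 0.552) were above 0. None of these markers passed. The median log2 fold change of the 9 genes was -0.08, beside 0.0045 over all genes tested. The groups did not overlap for 1 of the 9, Gpc6, which 4.06% of all genes showed and 2.16% showed with KO lower. The 95% interval of the difference ran from -0.78 to 0.27 on the log2 scale for Sparcl1 and from -0.30 to 1.59 for Thbs4, so the test does not show that levels were alike.

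Sparc (ENSMUSG00000018593, chr11:55394500-55420080, minus strand, GRCm38 as in the deposited files) encodes the matrix protein that opposes hevin. It had 7200, 5786, 2751 and 6977 CPM in KO astrocytes 60, 62, 73 and 132, against 3825, 4698, 3825 and 3880 CPM in WT astrocytes 56, 57, 64 and 78. KO 73 was the lowest of the 8, and the other 3 KO libraries were above all WT libraries. The log2 fold change was 0.49 ± 0.29 (95% interval -0.15 to 1.13, edgeR adjusted p = 0.973). Without KO 73 it was 0.72 ± 0.14 (unadjusted p = 6.6e-04, adjusted p = 0.110), and without both KO 73 and WT 78 it was 0.70 ± 0.15 (adjusted p = 0.135). It was 0.35 ± 0.31 without KO 60 (unadjusted p = 0.276) and 0.38 ± 0.32 without KO 132 (unadjusted p = 0.261). With a covariate for RNA of other cells it was 0.82 ± 0.199 (adjusted p = 0.113). This covariate was the mean log2 level of 4 marker lists (microglia, oligodendrocyte, endothelial and neuron) and left out the others. Its values were 6.57, 6.81, 7.30 and 6.85 in KO astrocytes 60, 62, 73 and 132. They were 6.64, 6.485, 6.855 and 6.40 in WT astrocytes 56, 57, 64 and 78. KO 73 had the highest value but the lowest neuron sum of the 8 (1972 CPM). Estimates with the covariate therefore do not separate the label from RNA of other cells. Sparcl1, the hevin gene (ENSMUSG00000029309, chr5:104079111-104114088, minus strand), had 4799, 5348, 2576 and 5018 CPM in KO astrocytes, against 4945, 5319, 5461 and 5574 CPM in WT astrocytes. KO 73 again held less than any other astrocyte library, KO 60 lay just under the WT range, and KO 62 and KO 132 lay within it. The log2 fold change was -0.26 ± 0.23 (edgeR adjusted p = 0.995), -0.07 ± 0.12 without KO 73 and -0.03 ± 0.18 with the covariate. KO 73 is the library with the low astrocyte marker sum, 12747 CPM, and the part of that sum in these values was not tested.

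Because the products of Sparc and Sparcl1 act against each other, the ratio of their RPKM values was taken in each library. The ratio does not depend on how libraries are scaled. It was chosen after the values were seen and is given as a description with no test. The ratio was 1.39, 1.0, 0.988 and 1.29 in KO astrocytes 60, 62, 73 and 132, against 0.715, 0.817, 0.648 and 0.644 in WT astrocytes 56, 57, 64 and 78. All 4 KO libraries were above all 4 WT libraries, KO 73 included, and the mean was 1.17 ± 0.20 in KO astrocytes, against 0.706 ± 0.081 in WT astrocytes (SD over 4 libraries). The difference of the means was 0.46, and 0.386 to 0.519 when libraries were left out. How often the ratios of other gene pairs separate the labels without overlap was not counted. Among single genes, 4.06% did. In flowthrough the ratio was 1.81 and 2.52 in KO 60 and 132, against 1.88 and 1.76 in WT 56 and 64, where the groups overlapped. Every flowthrough library had more Sparc per Sparcl1 than every astrocyte library. Sparc is also made by blood vessel cells and microglia, whose marker sums were 333 to 607 CPM (10 endothelial markers) and 615 to 2918 CPM (10 microglia markers) in KO astrocytes, against 260 to 749 and 601 to 1219 CPM in WT astrocytes. Between the labels in astrocytes, 10 of 10 microglia markers (median log2 fold change 0.552) and 8 of 10 endothelial markers (median 0.224) were above 0. None of them passed. No marker of either list was at 0 counts in a library, and the part of these cells in the ratio was not tested.

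**Figure D2:**
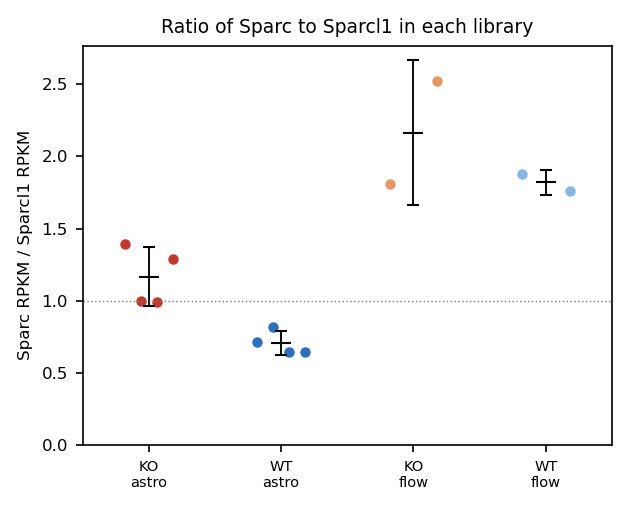
Ratio of Sparc to Sparcl1, each in RPKM, in every library. Points are libraries, the bar and whiskers are the mean and SD (n = 4 for each astrocyte group, n = 2 for each flowthrough group), and the dotted line marks equal levels. KO astrocytes lie between 0.988 and 1.39 and WT astrocytes between 0.644 and 0.817.

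The glypicans are heparan sulfate proteoglycans anchored in the membrane, from which they can be shed. Gpc5 and Gpc6 lie side by side on the plus strand of chromosome 14 (ENSMUSG00000022112, chr14:115092215-116525179, and ENSMUSG00000058571, chr14:116925297-117979529). Gpc4 lies on the X chromosome (ENSMUSG00000031119, chrX:52053021-52165252, minus strand). Gpc5, the most abundant of the 3 in astrocytes, had 77.4, 61.5, 47.6 and 66.2 CPM in KO astrocytes 60, 62, 73 and 132, against 101.7, 94.2, 73.7 and 109.2 CPM in WT astrocytes 56, 57, 64 and 78. KO 60 lay above WT 64, and the other 3 KO libraries lay below every WT library. The log2 fold change was -0.58 ± 0.17 (95% interval -0.96 to -0.19, unadjusted p = 0.00801, edgeR adjusted p = 0.506). Gpc6 had 13.1, 16.9, 15.2 and 17.7 CPM in KO astrocytes, against 23.8, 19.9, 18.3 and 22.7 CPM in WT astrocytes. The groups did not overlap, and the log2 fold change was -0.42 ± 0.15 (95% interval -0.75 to -0.10, unadjusted p = 0.0163, adjusted p = 0.675). Over 17 alternatives the log2 fold change of Gpc6 stayed between -0.49 and -0.35, with adjusted p from 0.295 to 1. Gpc4 had 3.89, 6.42, 13.5 and 7.48 CPM in KO astrocytes, against 10.5, 6.24, 8.03 and 8.49 CPM in WT astrocytes. KO 73 held the highest and KO 60 the lowest value of the 8, so the KO libraries spanned the WT range (log2 fold change -0.08 ± 0.34, adjusted p = 0.996). Its log2 fold change was -0.49 ± 0.27 without KO 73 and -0.48 ± 0.29 (adjusted p = 0.648) without the female-type libraries KO 73 and WT 78. With the covariate it was -0.74 ± 0.28 (unadjusted p = 0.0213, adjusted p = 0.264).

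Chrdl1 (ENSMUSG00000031283, chrX:143285674-143394262, minus strand) had 29.6, 31.5, 19.4 and 26.0 CPM in KO astrocytes 60, 62, 73 and 132, against 53.6, 50.2, 29.2 and 71.1 CPM in WT astrocytes 56, 57, 64 and 78. The 4 KO libraries lay close together, WT 64 lay among them, and the other 3 WT libraries were higher. The log2 fold change was -0.93 ± 0.26 (95% interval -1.503 to -0.359), the largest of the 9 in size, with an unadjusted p of 0.00477 and an edgeR adjusted p of 0.410. DESeq2 gave an adjusted p of 0.0651, the smallest of any alternative for these 9 genes in KO against WT astrocytes. Chrdl1 and Gpc5 are the members whose levels went together most closely over the 8 astrocyte libraries (Pearson r = 0.939 on log2 CPM), with WT 78 at the top and KO 73 at the bottom for both. The same covariate brought Chrdl1 to -0.51 ± 0.20 (adjusted p = 0.290) and Gpc5 to -0.31 ± 0.12 (adjusted p = 0.269). Chrdl1 is X-linked, and without the female-type libraries KO 73 and WT 78 the log2 fold change of Chrdl1 was -0.61 ± 0.22 (adjusted p = 0.427).

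The thrombospondin genes lie on chromosome 2 (Thbs1, ENSMUSG00000040152, chr2:118111876-118127133, plus strand), chromosome 17 (Thbs2, ENSMUSG00000023885, chr17:14665500-14694262, minus strand) and chromosome 13 (Thbs4, ENSMUSG00000021702, chr13:92751590-92794818, minus strand). Thbs1 had 3.08, 7.06, 10.8 and 5.98 CPM in KO astrocytes 60, 62, 73 and 132, against 7.75, 2.64, 13.6 and 2.00 CPM in WT astrocytes 56, 57, 64 and 78. The WT libraries spanned the whole KO range, and the log2 fold change was 0.05 ± 0.59 (edgeR adjusted p = 0.996). It was -0.28 without KO 73, 0.71 without WT 64 and -0.76 with the covariate. KO 73 and WT 64, the libraries with the most Thbs1 in their groups, also had the highest sums of the 10 endothelial markers, 607 and 749 CPM, against 260 to 488 CPM in the other 6. They were also highest for the mural (765 and 942 CPM), fibroblast and meningeal (117 and 128 CPM) and choroid plexus and ependymal sums (9928 and 6267 CPM). Thbs1 is known to be made by endothelial cells, platelets and macrophages as well. The part of these and other cells here was not tested. Thbs2 had 17.98, 39.5, 27.2 and 28.5 CPM in KO astrocytes, against 32.2, 14.8, 27.8 and 12.0 CPM in WT astrocytes. KO 60 was the lowest KO library for both Thbs1 and Thbs2, and WT 57 and WT 78 were low for both (Pearson r = 0.83 between these genes over the 8 libraries). The log2 fold change of Thbs2 was 0.39 ± 0.34 (adjusted p = 0.995), and it ran from 0.08 with the covariate to 0.64 without WT 56. Thbs4 had 4.76, 2.23, 1.33 and 1.37 CPM in KO astrocytes, against 1.46, 1.73, 1.22 and 1.84 CPM in WT astrocytes. KO 60 and KO 62 were above every WT library and KO 73 and KO 132 within the WT range (0.64 ± 0.42, adjusted p = 0.989). The log2 fold change of Thbs4 was 0.08 ± 0.31 without KO 60 and 1.11 ± 0.33 with the covariate (adjusted p = 0.182).

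**Figure D3:**
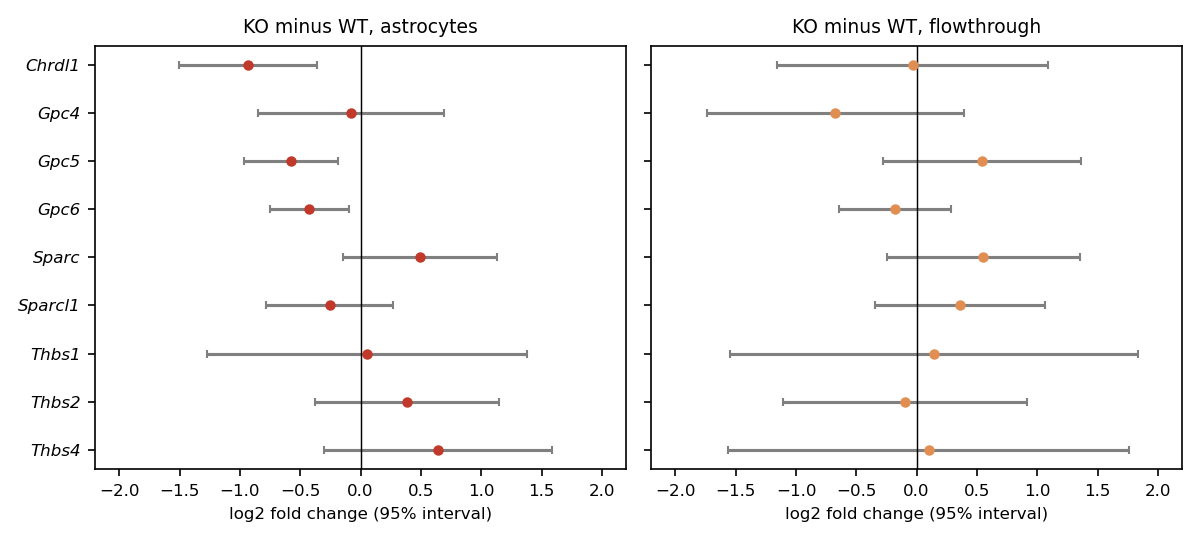
Log2 fold change of KO over WT for the 9 genes in astrocytes (left, 4 against 4 libraries) and in flowthrough (right, 2 against 2 libraries). Points are edgeR estimates and bars their 95% intervals. The intervals of Chrdl1, Gpc5 and Gpc6 in astrocytes lie below 0 before adjustment over all genes, and every interval in flowthrough spans 0.

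BMAL1 and CLOCK activate genes through the E-box CACGTG, so the 250 bases before the annotated start were searched in the 5 members that the RefSeq promoter table holds (Gpc4, Gpc5, Sparc, Thbs2 and Thbs4, build GRCm38.p6). The windows of Sparc and Gpc5 are shown because these were the most abundant members in astrocytes that the table holds. Both run 5′ to 3′ and end at the base before the gene's first exon in the deposited files. Sparc lies on the minus strand (chr11:55420081-55420330) and Gpc5 on the plus strand (chr14:115091965-115092214).
Sparc: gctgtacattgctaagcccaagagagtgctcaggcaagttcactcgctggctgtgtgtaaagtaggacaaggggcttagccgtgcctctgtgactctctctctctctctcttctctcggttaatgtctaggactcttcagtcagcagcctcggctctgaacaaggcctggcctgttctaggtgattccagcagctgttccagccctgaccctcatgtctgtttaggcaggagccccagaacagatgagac
Gpc5: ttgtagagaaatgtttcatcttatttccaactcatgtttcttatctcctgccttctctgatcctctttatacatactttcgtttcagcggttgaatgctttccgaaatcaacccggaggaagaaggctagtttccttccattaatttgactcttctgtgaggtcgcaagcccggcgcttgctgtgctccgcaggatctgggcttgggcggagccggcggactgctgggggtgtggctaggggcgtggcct
None of the 5 windows held CACGTG, which is its own reverse complement and which 6.02% of 32851 promoter windows of that length held. None held the variant CACGTT on either strand (3.85% of windows). The half-site AGGTCA, on which REV-ERB and ROR receptors bind, stood on either strand in 1 of the 5, that of Gpc4, and in 14.0% of all windows. Nothing in capitals appears in the Sparc and Gpc5 windows, since capitals would mark such a match. The absence of these letters says nothing about binding elsewhere.

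In flowthrough, the same question was put to the cells that the beads left. None of the 9 genes passed (0 of 9, where 0.00476% of 20997 genes passed in edgeR), and 0 of 9 had an unadjusted p under 0.05, which 4.63% of all genes had. Their median log2 fold change was 0.10, beside 0.037 over all genes. Sparc had 3811 and 3324 CPM in KO flowthrough 60 and 132, against 2662 and 2199 CPM in WT flowthrough 56 and 64. Both KO libraries were above both WT libraries, with a log2 fold change of 0.55 ± 0.36 (95% interval -0.25 to 1.35, adjusted p = 1). In the same libraries the 10 endothelial markers summed to 1150 and 1281 CPM in KO flowthrough, against 627 and 993 CPM in WT flowthrough, with 10 of 10 above 0 (median log2 fold change 0.60). The 8 choroid plexus and ependymal markers summed to 19466 and 23554 CPM in KO flowthrough, against 34183 and 40396 CPM in WT flowthrough, with 7 of 8 below 0 (median -0.89). Of the 12 astrocyte markers 11 were above 0 (median 0.499), as were all 10 neuron markers (median 0.922). Fibroblast and meningeal markers were below 0 in 6 of 8 (median -0.123). No marker of these lists passed, and their part in the Sparc value was not tested. The estimate had the same sign as in astrocytes, and the same 4 mice gave libraries to both. Gpc5 had 33.9 and 12.98 CPM in KO flowthrough, against 18.2 and 13.9 CPM in WT flowthrough, a log2 fold change of 0.54 ± 0.38 that was -0.31 without KO 60. KO flowthrough 60 held more astrocyte RNA than the other flowthrough libraries, with an astrocyte marker sum of 10259 CPM against 3478 to 5084 in the other 3. The same library had the highest oligodendrocyte (29862 CPM, against 12434 to 15397) and neuron (2676 CPM, against 617 to 1054) sums. Its microglia sum, 11267 CPM, was the lowest. The part of these cells in the Gpc5 value was not tested. Sparcl1 had 1947 and 1220 CPM in KO flowthrough, against 1311 and 1156 in WT flowthrough, where KO 60 alone stood out (0.36 ± 0.32). Chrdl1 had 13.4 and 5.62 CPM in KO flowthrough and 14.1 and 5.26 CPM in WT flowthrough, so each label held 1 high and 1 low library (-0.03 ± 0.51). Gpc4 had 10.3 and 11.01 CPM in KO flowthrough, against 22.7 and 11.3 CPM in WT flowthrough (-0.67 ± 0.49), with WT 56 high. Gpc6, Thbs1, Thbs2 and Thbs4 had log2 fold changes between -0.18 and 0.14 in flowthrough.

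The difference between fractions in the effect of the label was tested as an interaction, and 0 of the 9 genes passed, as did 0 of 20997 genes in all (828, or 3.94%, at an unadjusted p under 0.05, 2.69% with a negative interaction; DESeq2 called 8 and limma-voom 0). Gpc5 had the smallest p of the 9, with an interaction of -1.13 ± 0.46 on the log2 scale (unadjusted p = 0.0310, edgeR adjusted p = 0.934), with a lower KO mean in astrocytes and a higher one in flowthrough. It was -0.26 ± 0.35 without KO flowthrough 60 and -1.66 ± 0.35 without KO flowthrough 132. With the mouse as a block it was -0.69 ± 0.37 (adjusted p = 0.726). For Thbs1 the interaction was -0.10 ± 0.95 over the 12 libraries. Within the 4 mice with both fractions it was -1.41 ± 0.21 with the mouse as a block, with an unadjusted p of 3.1e-04 and an adjusted p of 0.476. In the same 8 libraries without the block it was -1.39 ± 0.62, and over the 12 libraries with the mouse as a random effect -0.26 ± 0.62. In those mice the astrocyte over flowthrough ratio of Thbs1 was 0.0962 and 0.111 in KO 60 and 132, against 0.266 and 0.279 in WT 56 and 64. Thbs1 was picked out here after its values were seen.

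The comparison of astrocytes with flowthrough shows in which fraction each factor was measured. Of the 9 genes, 6 rose and 1 fell in astrocytes relative to flowthrough, where 49.2% of all 20997 genes passed, 24.8% higher and 24.4% lower. Gpc5 rose most, at 78.95 ± 21.2 CPM in astrocytes (n = 8) and 19.8 ± 9.7 CPM in flowthrough (n = 4), a log2 fold change of 1.99 ± 0.25 (edgeR adjusted p = 1.1e-04). Chrdl1 rose to a similar degree, at 38.8 ± 17.6 CPM in astrocytes and 9.59 ± 4.8 CPM in flowthrough (1.94 ± 0.34, adjusted p = 8.5e-04). Sparcl1 had 4880 ± 969 CPM in astrocytes and 1409 ± 364 CPM in flowthrough (1.798 ± 0.22, adjusted p = 7.8e-05). For these 3 genes and Thbs4 the lowest astrocyte library was above the highest flowthrough library. With Thbs1, which lay the other way, the fractions did not overlap for 5 of the 9 genes, where 29.2% of all genes showed this. As a measure of the capture, the 12 astrocyte markers had a median log2 fold change of 1.87, and all 12 rose. Other marker lists rose, with medians of 1.61 (10 neuron markers) and 2.75 (8 cerebellar neuron and Bergmann glia markers), all past the threshold. The oligodendrocyte median was 0.992, with 5 of 10 past it. The microglia, endothelial, mural, fibroblast and meningeal, and choroid plexus and ependymal medians were below 0. The part of these cells in the values of the 9 genes was not tested. Thbs4 (1.65 ± 0.49, adjusted p = 0.0154), Gpc6 (0.74 ± 0.13, adjusted p = 9.5e-04) and Sparc (0.71 ± 0.23, adjusted p = 0.0242) rose as well. Sparc no longer passed without KO flowthrough 60 (adjusted p = 0.0505), KO flowthrough 132 (0.0921) or WT flowthrough 64 (0.105), and Thbs4 without KO flowthrough 132 (0.0668) or WT flowthrough 56 (0.0674).

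Thbs1 was the member that fell in astrocytes, with 6.61 ± 4.1 CPM in astrocytes and 41.0 ± 12.3 CPM in flowthrough, a log2 fold change of -2.63 ± 0.46 (edgeR adjusted p = 7.8e-04). Every flowthrough library, 29.2 to 54.1 CPM, was above every astrocyte library, 2.00 to 13.6 CPM. The 10 microglia markers fell with a median of -3.57 and the 10 endothelial markers with a median of -1.13, all 20 of them past the threshold. All 8 choroid plexus and ependymal markers were below 0 (median -1.48), with 4 past the threshold. The part of these cells in the Thbs1 value was not tested. Gpc4 had 8.08 ± 2.9 CPM in astrocytes and 13.8 ± 5.9 CPM in flowthrough, and missed the threshold (-0.74 ± 0.29, adjusted p = 0.0542). With the mouse as a block it passed (-0.898, adjusted p = 0.00611), and it was lower in the astrocytes of all 4 mice with both fractions. Thbs2 was nearly even, at 25.0 ± 9.3 CPM in astrocytes and 20.7 ± 4.0 CPM in flowthrough (0.26 ± 0.29, adjusted p = 0.473). Its level in astrocytes was 1.11 to 1.5 times that in flowthrough in the 4 mice, and passed with the mouse as a block (0.34, adjusted p = 0.0303).

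**Figure D4:**
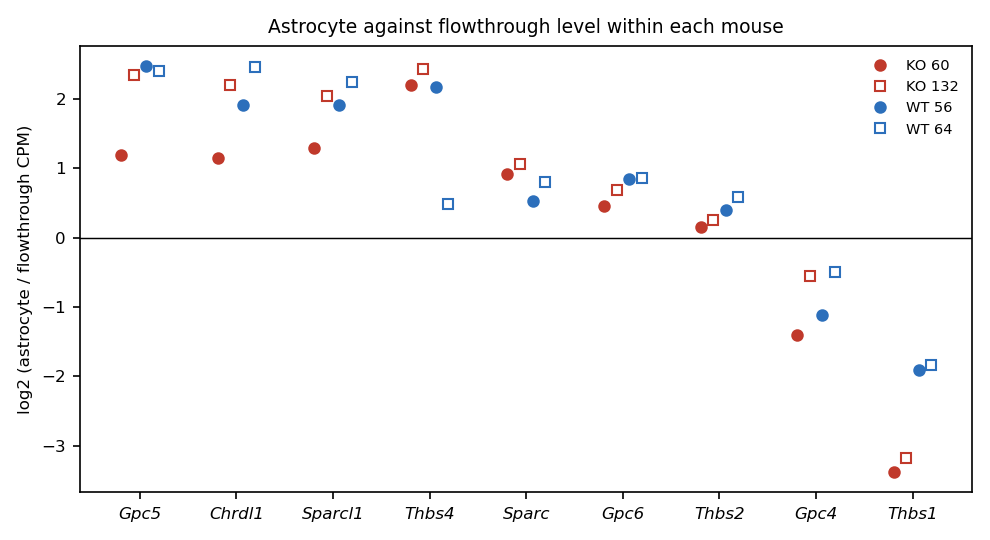
Log2 ratio of astrocyte to flowthrough CPM within each of the 4 mice that gave both fractions (KO 60, KO 132, WT 56, WT 64), genes in order of their mean. All genes but Gpc4 and Thbs1 lie above 0 in all 4 mice, and those 2 below 0 in all 4. KO 60 is the lowest point for every gene but Sparc and Thbs4.

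Relatives and partners of these factors were read from fixed lists, which were chosen with earlier results of these data known. Of 15 relatives (other glypicans, thrombospondins, SPARC family members and antagonists of bone morphogenetic proteins), 14 were tested and 0 passed in KO against WT astrocytes, with a median log2 fold change of -0.09 beside 0.0045 over all genes. The smallest p was that of Spock3, a testican of the SPARC family, with 38.9 ± 12.4 CPM in KO astrocytes, against 27.1 ± 1.4 CPM in WT astrocytes (0.53 ± 0.20, edgeR adjusted p = 0.772). Comp (1.07 ± 0.56) and Fstl1 (-0.27 ± 0.197) came next. Of 28 partners on the neuronal side or in receptor pathways, 0 passed, with a median of -0.07. Gria2, the AMPA receptor subunit gene tied to Chrdl1, had 63.9 ± 10.9 CPM in KO and 87.5 ± 11.2 CPM in WT astrocytes (-0.44 ± 0.15, adjusted p = 0.654), followed by Nptx2 (-0.89 ± 0.43) and Itgb1 (0.27 ± 0.13). Of 9 other synaptic factors of astrocytes, 8 were tested and 0 passed, with a median of -0.02, and Tgfb3 (0.37 ± 0.16), Bdnf (-0.78 ± 0.39) and the heparin-binding growth factor gene Ptn (0.30 ± 0.16) had the smallest p. In flowthrough 0 genes of the 3 lists passed between the labels. Ptn had the smallest p there, with 470 ± 48 CPM in KO and 250 ± 98 CPM in WT flowthrough (0.91 ± 0.27, unadjusted p = 0.00602, adjusted p = 1; n = 2 each). The medians of the lists in flowthrough were 0.08 for relatives, 0.51 for partners and 0.33 for other factors, beside a median of 0.92 for the 10 neuron markers and 0.50 for the 12 astrocyte markers. The part of those cells was not tested.

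Between the fractions, 19 of the 28 partners rose and 5 fell in astrocytes, beside the 24.8% and 24.4% of all genes. Of these 24 calls, 13 held within KO libraries alone and 23 within WT libraries alone. Gria1 had 518 ± 151 CPM in astrocytes and 105 ± 46 CPM in flowthrough (2.38 ± 0.27, edgeR adjusted p = 6.2e-05). Nlgn1 (2.00 ± 0.23) and Nlgn3 (1.81 ± 0.196), genes of postsynaptic neuroligins, rose as well, as did Cacna2d1, the thrombospondin receptor gene (1.14 ± 0.25, adjusted p = 0.00268). The 10 neuron markers rose in the same libraries with a median of 1.61, and all 10 passed. Neuronal RNA in the captured fraction therefore cannot be told apart from astrocyte expression of the partners. The 5 partners that fell were the integrin gene Itgb3 (-2.83 ± 0.39), the thrombospondin receptor gene Cd36 (-2.22 ± 0.51), Bmp4 (-1.62 ± 0.44), Bmp6 (-0.46 ± 0.15) and Itgb1 (-0.33 ± 0.10). Of the 14 relatives tested, 5 rose (Gpc1, Spock1, Spock3, Thbs3 and Chrd, from 0.89 to 1.44) and 2 fell (Smoc2 at -0.97 and Gpc3 at -1.05), a share close to the 49.2% of all genes that passed. Gpc1, a glypican, had 28.9 ± 3.3 CPM in astrocytes and 14.1 ± 2.5 CPM in flowthrough, and Gpc3 had 6.44 ± 3.8 CPM in astrocytes and 13.3 ± 3.3 CPM in flowthrough. Some of these calls did not hold when 1 library was left out. Chrd did not pass without KO flowthrough 60 (adjusted p = 0.0906) or WT flowthrough 64 (0.111). Smoc2 did not pass without KO flowthrough 132 (0.0857) or WT flowthrough 56 (0.170), nor did Itgb1 (0.0675 and 0.0630 without the same libraries). Bmp6 did not pass without any single flowthrough library (0.0694 to 0.0779). Of the 12 omissions, Gpc3 passed only without KO astrocytes 73, WT astrocytes 64 or WT astrocytes 78, and gave 0.0502 to 0.137 without each of the others. Of the 9 other synaptic factors, 5 rose (Nrcam, Ptn, Il33, Tgfb3 and Bdnf) and 3 fell (Tnf, Tgfb1 and Tgfb2). Tnf, a cytokine of microglia, had 1.06 ± 1.3 CPM in astrocytes and 13.2 ± 4.0 CPM in flowthrough (-3.72 ± 0.63).

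The genes most like each member in the 8 astrocyte libraries were named by Pearson correlation of log2 CPM, as a description over libraries that share labels, depth and cell makeup. They were Aldh6a1, Nwd1 and A930005H10Rik for Chrdl1 (r = 0.969 to 0.974), Bcl2, Gm11266 and Nim1k for Gpc5 (0.979 to 0.993), and Sft2d2, 4933407L21Rik and Slc35e4 for Gpc6 (0.918 to 0.959). For Gpc4 they were Orc3, Rbm26 and Sqor (0.947 to 0.949). For Sparc they were Csnk2b, Sdc3 and Sap18 (0.958 to 0.963), and for Sparcl1 Klhl5, Abhd11 and Ldhb (0.945 to 0.965). For Thbs1 they were Phldb2, Atp13a5 and Hyal2 (0.977 to 0.981), for Thbs2 Fam3a, Qars and Ergic3 (0.965 to 0.990), and for Thbs4 Thap7, Ppme1 and Slc39a3 (0.924 to 0.984). These values rest on 8 libraries and carry no test.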

How the data were processed

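Per the file headers, each of the 12 deposited files gives, for 41388 genes, exon coordinates, summed exon length, a raw read count, CPM and RPKM. The deposited CPM values are the count scaled to a library total of 1e+06, and the deposited RPKM values are those per kilobase of exon (checked within 9.1e-11). RNA was amplified with a SMARTer kit, per the labels. Both CPM and RPKM columns served only as checks, and the deposited counts were tested. The build GRCm38 and the tools STAR 2.5.1a and featureCounts 1.4.6-p5, beside Subread and bcl2fastq, come from the submitters' processing notes. Strand setting, multi-mapping reads and annotation release: not given in the sources used here. Opposite-strand genes overlap 107 exon bases of Gpc5, 201 of Sparcl1 and 208 of Thbs1. These genes had 72, 2079 and 0 counts of their own over 12 libraries. With the strand setting not given, their effect on the members' counts was not tested. Symbols matched for 40254 genes.

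The main test was that of edgeR 4.0.16 under R 4.3.3 (quasi-likelihood, two-sided, TMM, filterByExpr by group, Benjamini-Hochberg over all genes tested, called at 0.05). KO and WT astrocytes were compared in the 8 astrocyte libraries (6 residual degrees of freedom), and the other comparisons used all 12 libraries with 4 group means (8). Fold changes are log2 estimates ± SE (the estimate divided by the root of the F statistic). CPM and RPKM in the text are TMM-scaled over 12 libraries and given as mean ± SD. Alternatives used DESeq2 1.42.0, limma 3.58.1 (voom), other scalings and filters, other sets of libraries and each library left out. Mouse numbers pair the fractions of 4 mice, since they name the same animal. Deviations from the group means correlated at -0.00664 in mouse 132, 0.155 in 56, 0.352 in 60 and 0.251 in 64. The consensus correlation within mice in the random-effect fit was 0.418. The main test did not model the mouse, which only the alternatives did. Replicates are separate mice per the labels. No source names molecular identifiers, so the floor covers counting error only. Genes outside the 9 members were named by rule: list genes that were called or had one of the 3 smallest p, and the 3 most correlated genes per member (mean log2 CPM of at least 3, pseudocount 0.5). Not every list gene under this rule is reported here. Members, lists and rules were chosen with earlier results of these data known.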

Additional observations from a re-analysis of the deposited data

Results flagged for a closer look

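Among the 9 genes and the Sparc to Sparcl1 ratio, each checked in both astrocyte groups (20 checks, of which chance flags about 1 in 20), 1 value lay far from the rest of its group. Sparc in WT astrocytes 57, at 4698 CPM, was above the other 3 WT astrocyte libraries, which lay between 3825 and 3880 CPM. The gap took 0.936 of the range of the 4 libraries, against a critical value of 0.829. Without WT 57 the log2 fold change of Sparc was 0.57 ± 0.33 (edgeR adjusted p = 0.999).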

How the results depend on the processing

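Over the 17 alternatives for KO against WT astrocytes, the 11 for flowthrough and the 21 for the interaction, 0 of the 9 genes were called. Over the 24 for astrocytes against flowthrough, 5 to 9 were called, beside 7, and 0 of 216 values changed sign. Over all genes, KO against WT astrocytes gave 43 calls (27 higher, 16 lower), 28 by library size (21 higher, 7 lower), 184 in DESeq2, 146 with the non-astrocyte covariate, and 12 to 37 when each library was left out. Flowthrough gave 1 call, 23 in DESeq2, 0 in limma-voom, 0 with the 4 flowthrough libraries only, and 0 to 5 with a library left out. The interaction gave 0, and 8 in DESeq2. The fractions gave 10333, and 4893 within KO libraries. Library size scaling moved the median log2 fold change of all genes between the fractions to -0.143, beside 0.00396. The cause of these differences was not tested.

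Log2 fold changes of some uncalled genes changed sign. In astrocytes, Thbs1 was -0.5759 without KO 73 and WT 78 and -0.7634 with the covariate, and with each library left out Thbs1 ran from -0.281 to 0.7054 and Gpc4 from -0.4873 to 0.1394. In flowthrough, where leaving out a library leaves 1 against 2, which is assumed to vary like the other groups, Chrdl1 ran from -0.7875 to 0.8511, Gpc5 from -0.3077 to 1.078, Gpc6 from -0.3586 to 0.02998, Sparcl1 from -0.01505 to 0.6586, Thbs1 from -0.2838 to 0.5612, Thbs2 from -0.4017 to 0.153 and Thbs4 from -1.23 to 0.9712. Arntl ran from -0.06496 to 0.2344, Spock1 from -0.03933 to 0.9423 and Nrcam from -0.03993 to 1.036. Thbs4 was -0.05695 in limma-voom. The Thbs1 interaction was 0.162 in limma-voom and ran from -0.5105 to 0.5535 with each library left out, and it was -1.41 and -1.39 in the 4 mice with both fractions, with and without the mouse as a replicate block.

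Between the fractions, Sparc missed the threshold within KO libraries (adjusted p = 0.155) and within WT libraries (0.0943), as did Thbs4 (0.0674 and 0.133). Gpc4 passed under 10 alternatives. With the mouse as a replicate block, Gpc4 was -0.898 and Thbs2 0.34, and both passed. As a random effect, Gpc4 was -0.802 (adjusted p = 0.00791) and Thbs2 did not pass. Of the 9 genes no other call changed with the block. Bmp6 missed the threshold with the block (-0.377, adjusted p = 0.0619). Thbs4, with 14 to 201 counts per library, had the fewest counts of the 9.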
